A study of Mus musculus with 10 samples.

Results

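The genes described here carry glucose, lactate and glycogen carbon to pyruvate and on through the pyruvate dehydrogenase complex into the tricarboxylic acid (TCA) cycle. A list of 46 genes, chosen for their place in these pathways, was read from the 54532 genes measured in the hearts of mice with the Noonan syndrome allele Rit1 M90I. RIT1 is a RAS-family guanosine triphosphatase, and the trial in which the hearts were collected asked whether blocking MEK, a kinase of the MAPK pathway, eases the cardiac overgrowth of these mice. All 10 mice, controls included, were Rit1 M90I/+. The mutant allele was made conditional and was activated by CMV-Cre, a deleter transgene inherited from the mother, so it was present in the germ line and not in cardiomyocytes alone. No Rit1 wild-type heart was analysed here. The MEK inhibitor (MEKi) group (n = 5) received trametinib, an allosteric MEK1/MEK2 inhibitor, daily at 1 mg/kg, beginning at an age of 4 weeks and lasting 20 weeks, and the vehicle group (n = 5) received the carboxymethylcellulose and Tween 80 carrier on the same schedule. The last dose was given on the morning the hearts were taken, and the labels call the 5 hearts of each group biological replicates.

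Glycolysis splits glucose into pyruvate in the cytosol, and lactate dehydrogenase interconverts pyruvate and lactate. The pyruvate dehydrogenase complex turns pyruvate into acetyl-CoA inside mitochondria, where the TCA cycle oxidizes it; pyruvate dehydrogenase kinases shut the complex off by phosphorylation and the phosphatase PDP1 turns it back on. The adult heart draws most of its energy from fatty acids and keeps glucose and lactate as flexible fuels, using muscle isoforms for many of these steps.

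Expression was given as FPKM, the number of sequenced fragments assigned to a gene scaled to the length of the gene and to a library size. That scaling allows levels of different genes to be compared. The library size behind the values was not the count of assigned fragments. It was 1.42182e+07 in vehicle heart 3, with 15371692 assigned, and 1.71398e+07 in MEKi heart 1, with 16256252. How it was set was not tested. From 13647167 to 16659254 fragments per vehicle heart and from 14868373 to 18474002 per MEKi heart were assigned to genes, and mitochondrial genes took 24.7 to 35.01% and 24.0 to 28.7% of them. Summed FPKM of 7 ventricular cardiomyocyte markers ran from 15146 to 20802 in vehicle and from 14976 to 20504 in MEKi-treated hearts. Of 8 skeletal muscle markers, Myh2 and Myh4 were at 0 in every heart and Myh1 had at most 2 fragments. The others were detected. Over all hearts Tnni2 was at 0.195 to 1.68 FPKM, Mylpf at 0.0653 to 1.18 and Tnnt3 at 0 to 0.651. Acta1 was at 14.9 to 262 FPKM and Ckm at 322 to 495. Whether these transcripts came from skeletal muscle was not tested. Vehicle hearts 4 and 5 stood apart by red cell markers, with summed FPKM of 23269 and 25085 against 2813 to 7223 in the other 8. These 2 hearts and MEKi heart 2 also held the most atrial marker transcripts, at 802 to 2136 FPKM in sum against 125 to 456 elsewhere. Xist, the transcript of the inactive X chromosome, had at most 2 fragments in any vehicle heart and was at 5.16 to 6.85 FPKM in every MEKi heart, whereas the Y-linked Ddx3y was at 10.3 to 12.2 and at 0 FPKM. The paper's trial took littermates of both sexes. The division of these hearts by X- and Y-linked transcripts was the same as that by treatment. Treatment and the sex that these transcripts mark therefore cannot be told apart in any comparison that follows. That includes the X-linked genes Pfkfb1, Pgk1, Pdha1 and Idh3g. Rit1 itself was at 14.6 ± 1.54 FPKM (SD, n = 5) in vehicle and 19.0 ± 2.496 (n = 5) in MEKi-treated hearts.

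The group was abundant in both sets of hearts and dominated by muscle and heart isoforms. The 46 genes together held 3.09 ± 0.369% of non-mitochondrial FPKM in vehicle hearts and 3.21 ± 0.177% in MEKi-treated hearts. Among them, 6 genes made up 59.4 ± 2.37% of the members' FPKM with vehicle and 58.5 ± 1.35% with MEKi, namely Aldoa, Ldhb, Eno3, Idh2, Pgam2 and Mdh2. Aldoa, the muscle aldolase, ranked 41 of the 12602 genes that passed the filter, a mean over all hearts of 0.5 FPKM or more, and Ldhb, the heart lactate dehydrogenase subunit, ranked 44. Of the 46 genes, 45 passed that filter. The exception was Aldoc, the brain aldolase, which had from 0 to 11 fragments per heart and none in 3 hearts, where 3 fragments, the limit that a count of 0 allows for counting error, would be 0.0626 to 0.0638 FPKM.

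**Figure D1:**
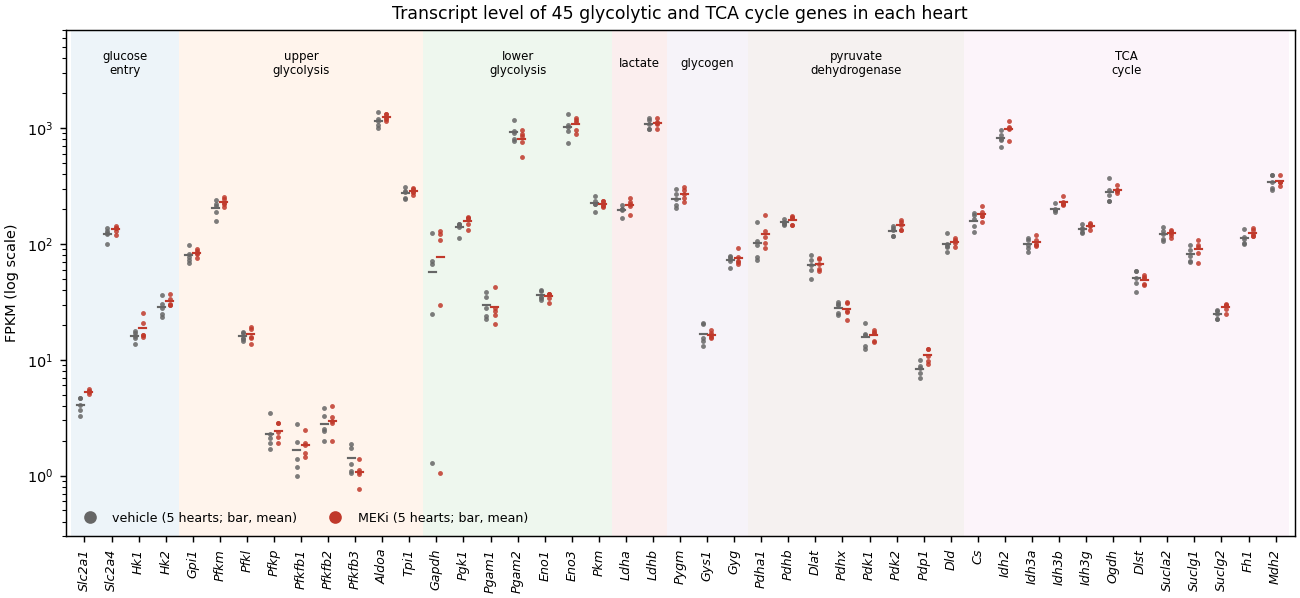
FPKM (log axis) of the 45 genes that passed the filter, ordered by step, with 1 point per heart (gray, vehicle; red, MEKi) and a bar at each group's mean. Levels run from 1.24 FPKM, averaged over all hearts, for Pfkfb3 to 1203 for Aldoa, and the points of the groups overlap for every gene but Slc2a1.

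MEKi-treated and vehicle hearts were then compared gene by gene with limma on log2(FPKM + 0.1), a scale that understates the change of low genes, with Benjamini-Hochberg adjustment over all 12602 genes. None of the 45 genes reached an adjusted p of 0.05, against 0.0794% of all genes tested, and their adjusted p ran from 0.401 to 0.988. At an unadjusted p under 0.05, 3 genes passed (6.667%), against 7.62% of all genes, so the group was not called more often than the background. All 3, Slc2a1, Pdp1 and Suclg2, had higher means with MEKi, a direction in which 3.67% of all genes were called. Only Slc2a1 had groups that did not overlap, which held for 1.64% of all genes tested, 0.794% with MEKi higher and 0.849% with it lower. The 95% interval of the difference lay within 1.5-fold in both directions for 39 of the 45 genes, and reached beyond it for Slc2a1, Pfkfb1, Pfkfb3, Gapdh, Pdha1 and Pdp1. In whole heart RNA, fewer cells of a type and less RNA per cell cannot be told apart.

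Small differences leaned 1 way across the group. The log2 fold change (MEKi over vehicle) was above 0 for 37 genes and below 0 for 8, which is 82.2% against 52.1% of all genes, and its median was 0.10 against 0.01. Abundant genes in general leaned the same way. Of the 5161 genes that averaged 5 FPKM or more, 59.2% were above 0. Of the 790 that averaged 50 FPKM or more, 70.4% were above 0, with a median of 0.08, and of the 29 members that abundant 93.1% were, with a median of 0.10. Among cell type markers, 6 of 7 of ventricular cardiomyocytes were above 0, with a median of 0.15. Of the 5 endothelial, 5 fibroblast and 5 macrophage markers, 0, 2 and 0 were, with medians of -0.17, -0.03 and -0.36. The part of these markers in the lean was not tested. Scaling each heart to a fixed total (TPM) replaced the library sizes behind the deposited FPKM. It moved the share above 0 to 67.5% of all genes and to 43 of the 45 members. The share of unadjusted calls that were higher with MEKi moved from 48.2 to 76.8%. The size of the lean moved with single hearts. Vehicle heart 5 was the lowest of all 10 hearts for 22 of the 45 genes, and without it 30 of 45 were above 0, with a median of 0.06, beside 51.4% of all genes. Leaving out any 1 heart kept from 30 to 41 members above 0. Without vehicle hearts 4 and 5 and MEKi heart 2, the 3 with the most atrial transcripts, 30 of 45 were above 0, with a median of 0.05, beside 51.8% of all genes. These shares of all genes are not matched for abundance, and abundant genes were not counted apart with hearts left out.

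**Figure D2:**
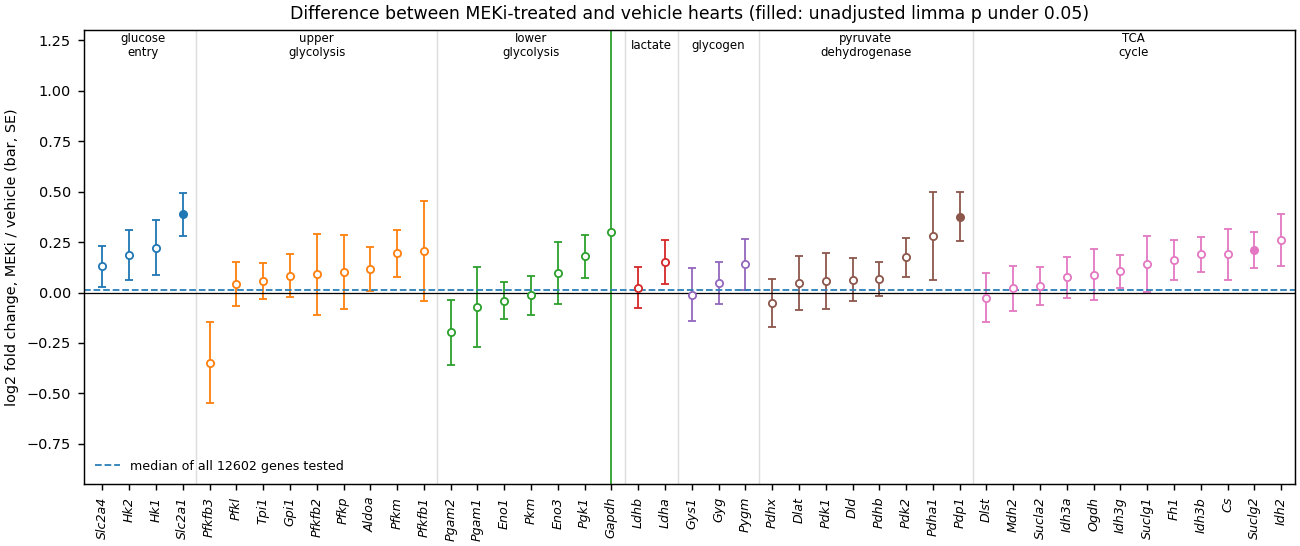
Log2 fold change (MEKi over vehicle, y axis) of each gene with its standard error, ordered within each step, where 0 is no difference and the dashed line is the median of all genes tested. Filled points mark the unadjusted limma p under 0.05 (Slc2a1, Pdp1 and Suclg2), and the bar of Gapdh, with an SE of 1.44, runs past both ends of the axis.

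All 4 genes of glucose entry had higher means with MEKi. They encode the glucose transporters of the plasma membrane, GLUT1 (Slc2a1) and the insulin-responsive GLUT4 (Slc2a4), and the hexokinases Hk1 and Hk2, which trap glucose by phosphorylation. Their median log2 fold change was 0.20.

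Slc2a1 (ENSMUSG00000028645, chromosome 4, 119108711 to 119137983, plus strand, GRCm38) was at 4.66, 3.30, 4.63, 3.67 and 4.10 FPKM in vehicle hearts 1 to 5. In MEKi hearts 1 to 5 it was at 5.39, 5.24, 5.05, 5.34 and 5.55 FPKM. Every MEKi heart was thus above every vehicle heart, and the MEKi hearts lay close together while the vehicle hearts spread more widely. The means were 4.07 ± 0.595 FPKM with vehicle and 5.31 ± 0.188 with MEKi (SD, n = 5 each), 30.5% higher, and 167 to 335 fragments per heart stood behind them. The log2 fold change was 0.39 ± 0.11 (SE), with an unadjusted limma p of 0.00381 and an adjusted p of 0.401. It stayed between 0.32 and 0.47 under the alternatives, with adjusted p from 0.264 to 0.768.

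Slc2a4, the main transporter transcript here, was at 129.7, 138, 121, 124 and 100.02 FPKM with vehicle and at 138, 119, 129.7, 144 and 137 with MEKi. The groups overlapped over most of their range, and vehicle heart 5 was the lowest. Its log2 fold change was 0.13 ± 0.10 (limma adjusted p = 0.802). Hk2, the hexokinase of insulin-sensitive muscle, was at 28.5 ± 5.16 FPKM with vehicle and 32.1 ± 3.18 with MEKi, and Hk1 at 16.0 ± 1.56 and 18.9 ± 4.12 (n = 5 each), with log2 fold changes of 0.18 and 0.22 and limma adjusted p of 0.764 and 0.744.

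Because Slc2a1 and Suclg2 were the 2 of the 3 genes with an unadjusted p under 0.05 whose promoters could be read from the RefSeq table (Pdp1 had no entry), their 250 bases before the annotated start are shown, with those of the first of 2 Ldha starts, which held the most ACGTG matches of any member. Build is GRCm38.p6, and capitals mark GGGCGG (the GC box) and ACGTG (the hypoxia response core) on either strand.
Slc2a1, chr4:119108495-119108744, plus strand: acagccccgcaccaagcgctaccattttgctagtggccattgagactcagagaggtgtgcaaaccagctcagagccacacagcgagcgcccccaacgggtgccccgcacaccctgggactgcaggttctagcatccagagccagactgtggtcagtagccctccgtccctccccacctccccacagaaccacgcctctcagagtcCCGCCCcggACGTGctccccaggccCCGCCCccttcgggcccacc
Suclg2, chr6:95718847-95719096, minus strand: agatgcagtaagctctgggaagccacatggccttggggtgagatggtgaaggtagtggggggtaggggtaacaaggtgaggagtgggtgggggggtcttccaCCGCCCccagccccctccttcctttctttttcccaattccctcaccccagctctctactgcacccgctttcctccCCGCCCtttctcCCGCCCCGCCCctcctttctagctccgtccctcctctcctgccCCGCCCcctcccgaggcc
Ldha, chr7:46845554-46845803, plus strand: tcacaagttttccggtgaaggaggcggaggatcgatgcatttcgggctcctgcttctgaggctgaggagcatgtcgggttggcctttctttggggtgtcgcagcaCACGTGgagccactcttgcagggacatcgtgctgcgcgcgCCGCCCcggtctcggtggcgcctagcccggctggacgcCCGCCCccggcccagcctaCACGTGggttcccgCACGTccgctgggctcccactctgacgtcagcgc
The Slc2a1 window held 2 GC boxes and 1 ACGTG, that of Suclg2 held 5 GC boxes, the most of any member, and no ACGTG, and that of Ldha held 2 GC boxes and 5 ACGTG matches. In Ldha 4 of the 5 came from the palindrome CACGTG (the E box), which contains ACGTG on both strands. The table held 67 promoters of 43 of the 46 genes, all but Idh3a, Pdp1 and Slc2a4. GGGCGG was present in 47.8% of these promoters against 32.7% of all 32851 promoters, ACGTG in 35.8% against 16.6%, CACGTG in 11.9% against 6.02%, and CCAAT in 40.3% against 33.8%. Genes with several starts were counted once per start. The 32, 24, 8 and 27 member promoters with these motifs came from 28, 15, 6 and 21 genes. For 47 of the 67, the bases after the start were found in a transcript of the gene. Neither TCAAGGTCA, an estrogen-related receptor site, nor the consensus motif of NRF1 was found in any of the 67. Of all promoters, 0.387% and 0.782% held them. At shares this low none would be likely among any 67 promoters, so the absence does not set the members apart. The median GC content was 59.6% for the members' promoters and 52.4% for all, a difference that moves with the GC-rich motifs, and its part in these shares was not tested.

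**Figure D3:**
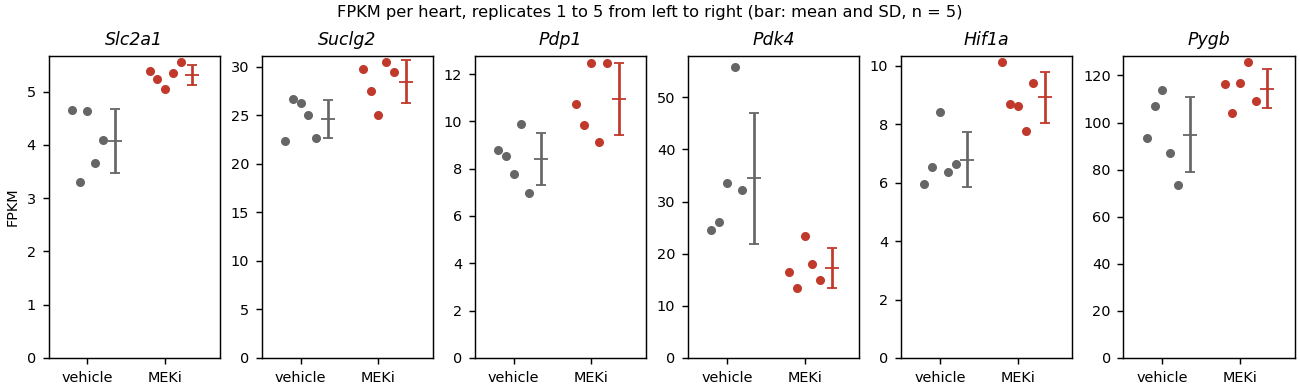
FPKM in each heart for Slc2a1, Suclg2, Pdp1, Pdk4, Hif1a and Pygb, with replicates 1 to 5 of each group from left to right and a bar for the mean and SD (n = 5). Slc2a1 is higher and Pdk4 lower in every MEKi heart than in every vehicle heart, and the groups overlap for the other 4 genes.

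Upper glycolysis and its regulators comprised 10 genes, of which 9 were tested, with 8 above 0, 1 below and a median log2 fold change of 0.09. Aldoa (ENSMUSG00000030695, chromosome 7, 126795234 to 126800751, minus strand) led the step, at 1367, 1187, 1001, 1158 and 1071 FPKM with vehicle and 1235, 1198, 1146, 1334 and 1332 with MEKi. The highest and the lowest heart were both in the vehicle group. Its log2 fold change was 0.12 ± 0.11 (limma adjusted p = 0.828). A second, read-through entry of Aldoa in the table averaged 0.132 FPKM and was not tested.

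Phosphofructokinase, which commits sugar to glycolysis, was represented mainly by its muscle subunit. Pfkm was at 204 ± 30.9 FPKM with vehicle and 232 ± 19.2 with MEKi, which is 0.19 on the log2 scale (limma adjusted p = 0.737), while the liver subunit Pfkl was at 16.0 ± 1.28 and 16.5 ± 2.35 FPKM and the platelet subunit Pfkp at 2.30 ± 0.686 and 2.43 ± 0.418. The 3 PFKFB enzymes, which set the level of a fructose bisphosphate that activates phosphofructokinase, were among the least abundant members, between 1.07 and 2.99 FPKM in every group mean. Pfkfb3 was the 1 gene of the step with a lower mean under MEKi, at 1.41 ± 0.386 FPKM with vehicle and 1.07 ± 0.221 with MEKi. Its log2 fold change of -0.35 ± 0.20 (limma adjusted p = 0.720) rested on 103 to 199 fragments per heart, and vehicle hearts 4 and 5 held its 2 highest values, 1.89 and 1.74 FPKM. Without these 2 hearts and MEKi heart 2 it was -0.11. Gpi1 and Tpi1, the sugar phosphate isomerases, averaged 79.6 and 275 FPKM with vehicle and 83.7 and 285 with MEKi.

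Lower glycolysis, which yields ATP and pyruvate, showed no common direction, with 3 of its 7 genes above 0 and 4 below and a median of -0.01. Eno3, the muscle enolase (ENSMUSG00000060600, chromosome 11, 70657202 to 70662513, plus strand), was at 1322, 1073, 937, 1016 and 739 FPKM with vehicle and 1177, 895, 955, 1218 and 1138 with MEKi. Vehicle hearts 1 and 5 were its highest and lowest, and all 5 MEKi hearts fell between them. The log2 fold change was 0.10 ± 0.16 (limma adjusted p = 0.920) and turned to -0.01 without vehicle heart 5. Pgam2, the muscle phosphoglycerate mutase, had the largest negative value of the step, at 921 ± 163 FPKM with vehicle and 807 ± 153 with MEKi, or -0.20 ± 0.16 on the log2 scale (limma adjusted p = 0.814). Pgk1, the phosphoglycerate kinase encoded on the X chromosome, was at 139 ± 15.01 and 158 ± 16.7 FPKM (0.18, limma adjusted p = 0.736). Pkm, the muscle pyruvate kinase gene, was at 225 ± 26.3 and 222 ± 12.9 FPKM, and Eno1 at 36.2 ± 3.22 and 35.2 ± 2.91.

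Gapdh, glyceraldehyde-phosphate dehydrogenase and a common reference gene, varied far more between hearts of 1 group than any other member, and is described in full for that reason, a choice made after its values were seen. In vehicle hearts 1 to 5 it was at 67.3, 1.28, 24.7, 70.6 and 124 FPKM, and in MEKi hearts 1 to 5 at 29.5, 128, 108, 121 and 1.05. The highest heart was 122.7 times the lowest, and each group held 1 heart near 1 FPKM. Its within-group SD of 2.75 on the log2 scale ranked 10 of 12602 genes, against a median of 0.18 for the members and 0.25 for all genes. The means were 57.6 ± 47.3 and 77.6 ± 58.2 FPKM, and the log2 fold change of 0.30 ± 1.44 (limma adjusted p = 0.971) ran from -0.80 without vehicle heart 2 to 1.54 without MEKi heart 5.

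Gapdh also had the most near-identical genes of any member. By sequence, 48 other genes of the table matched its transcripts at 97% identity or more over at least 150 bases, and 17 of these averaged at least 0.5 FPKM. Together these 48 genes were assigned from 1328 to 2784 fragments per heart, and Gapdh itself from 68 to 9112. Vehicle heart 2 and MEKi heart 5, with 76 and 68 Gapdh fragments, had 2094 and 2580 in the copies, or 96.5% and 97.4% of the fragments of Gapdh and its copies, against 15.1 to 57.1% in the other 8 hearts. Fragments in the copies thus varied within about 2-fold while those in Gapdh spanned over 100-fold, so the sum did not even out the hearts, at 2170 to 11568 fragments. How fragments were shared between Gapdh and its copies upstream was not tested. Its levels are therefore uncertain.

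**Figure D4:**
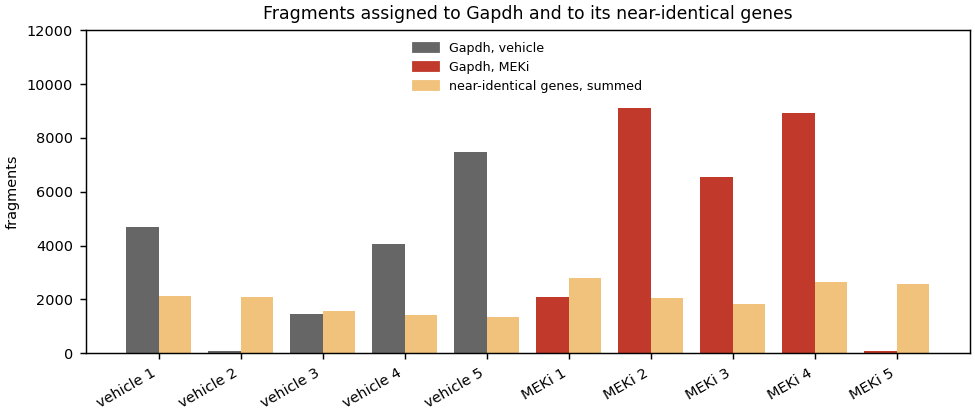
Fragments per heart (y axis) assigned to Gapdh (gray, vehicle; red, MEKi) and to its 48 near-identical genes in sum (yellow). Gapdh nearly vanishes in vehicle heart 2 and MEKi heart 5 while the copies stay between 1328 and 2784 in all 10 hearts.

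For 9 other members at least 1 near-identical gene averaged 0.5 FPKM or more, and its share was small. Suclg2 shared most with its copy Gm15163, which held 3.78 to 8.67% of their joint fragments. For Gpi1, Tpi1, Pgk1, Pgam1, Eno1, Pkm, Ldhb and Pdhb the copies (among them Eno1b for Eno1) held at most 2.34%. Genes on the opposite strand with at least 0.5 FPKM overlapped Pfkm, Pfkp, Pfkfb1, Pfkfb2, Aldoa, Tpi1, Gapdh, Gys1, Idh3b and Sucla2, and since strand-aware counting is not stated, a share of their fragments may belong to the neighbor; the strongest such neighbor relative to its member was Pitrm1, at 6.76 FPKM against 2.30 and 2.43 for Pfkp.

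Lactate and glycogen genes differed little between the groups. Ldhb, whose subunit favors the conversion of lactate to pyruvate (ENSMUSG00000030246, chromosome 6, 142490249 to 142507957, minus strand), was at 1216, 1096, 1167, 991 and 989 FPKM with vehicle and 1141, 1081, 1114, 1216 and 990.0 with MEKi. The ranges of the groups were nearly the same, and the log2 fold change was 0.02 ± 0.10 (limma adjusted p = 0.969), turning to -0.06 without vehicle hearts 4 and 5 and MEKi heart 2. Ldha was at 196 ± 18.2 and 218 ± 27.4 FPKM (0.15, limma adjusted p = 0.781). Pygm, the muscle glycogen phosphorylase that releases glucose from glycogen (ENSMUSG00000032648, chromosome 19, 6384399 to 6398459, plus strand), was at 242, 269, 299, 217 and 202 FPKM with vehicle and 272, 231, 247, 292 and 308 with MEKi. Vehicle hearts 4 and 5 were again the lowest, and its log2 fold change was 0.14 ± 0.13 (limma adjusted p = 0.821). The glycogen synthase gene Gys1 and the primer protein gene Gyg averaged 16.8 and 72.7 FPKM with vehicle and 16.5 and 75.4 with MEKi.

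At the pyruvate dehydrogenase step, 7 of 8 genes were above 0, with a median of 0.07, and the activating phosphatase gene Pdp1 stood out. Pdp1 (ENSMUSG00000049225, chromosome 4, 11958184 to 11966452, minus strand) was at 8.80, 8.53, 7.76, 9.90 and 6.98 FPKM in vehicle hearts. In MEKi hearts it was at 10.7, 9.85, 12.5, 9.12 and 12.5 FPKM. Vehicle heart 4 lay above MEKi hearts 2 and 4, and all other vehicle hearts lay below all MEKi hearts. The means of 8.39 ± 1.10 and 10.9 ± 1.52 FPKM (n = 5 each) gave a log2 fold change of 0.38 ± 0.12, an unadjusted limma p of 0.00964 and an adjusted p of 0.478. Under the alternatives it stayed between 0.31 and 0.46, with adjusted p from 0.398 to 0.808.

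The subunits of the complex were flatter. Pdhb, of the E1 component, was the most abundant gene of the step and the member that varied least (ENSMUSG00000021748, chromosome 14, 8165996 to 8173025, minus strand). It was at 152, 155, 165, 149 and 147 FPKM with vehicle and 171, 146, 147, 169 and 174 with MEKi, so the groups overlapped, and its log2 fold change was 0.07 ± 0.08 (limma adjusted p = 0.895). Its partner Pdha1, on the X chromosome, varied more between hearts than all members but Gapdh and Pfkfb1, at 73.2 to 155 FPKM with vehicle and 93.0 to 176 with MEKi (0.28 ± 0.22, limma adjusted p = 0.802). Dlat, Pdhx and Dld, of the E2, E3-binding and E3 components, averaged 65.5, 28.2 and 100.1 FPKM with vehicle and 67.1, 27.3 and 104 with MEKi.

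The inactivating kinases among the members, Pdk2 and Pdk1, were at 129 ± 11.8 and 15.8 ± 3.29 FPKM with vehicle and 146 ± 13.5 and 16.3 ± 1.75 with MEKi. The log2 fold change of Pdk2 was 0.18 ± 0.10 (limma adjusted p = 0.712). A further kinase gene, Pdk4, belongs to the other pathway genes described further on and was at 34.4 ± 12.6 and 17.3 ± 3.85 FPKM, so the kinase transcript that differed most between the groups was not among the 46.

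The TCA cycle held 12 genes, 11 of them above 0, with a median log2 fold change of 0.12. Suclg2 encodes the GTP-forming beta subunit of succinyl-CoA ligase (ENSMUSG00000061838, chromosome 6, 95473009 to 95718800, minus strand). It was at 22.4, 26.7, 26.3, 25.0 and 22.7 FPKM in vehicle hearts and at 29.8, 27.5, 25.0, 30.5 and 29.5 FPKM in MEKi hearts. All MEKi hearts but the third were above every vehicle heart. The means were 24.6 ± 2.00 and 28.5 ± 2.22 FPKM, 15.6% higher with MEKi, with a log2 fold change of 0.21 ± 0.09, an unadjusted limma p of 0.0366 and an adjusted p of 0.619. Sucla2, the gene of the ATP-forming beta subunit, was at 121 ± 14.4 and 124 ± 7.43 FPKM, and the shared alpha subunit gene Suclg1 at 81.2 ± 12.0 and 89.9 ± 14.9 (0.14, limma adjusted p = 0.839).

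The isocitrate dehydrogenases were all above 0. Idh2, the NADP-dependent mitochondrial enzyme (ENSMUSG00000030541, chromosome 7, 80094846 to 80115392, minus strand), was the most abundant TCA gene, at 961, 792, 879, 804 and 683 FPKM with vehicle and 998, 981, 1027, 1154 and 776 with MEKi. In 4 of the 5 MEKi hearts it was above all vehicle hearts, and MEKi heart 5 was lower than all vehicle hearts but the fifth. Its log2 fold change was 0.26 ± 0.13 (limma adjusted p = 0.666). Of the 3 subunits of the NAD-dependent enzyme, Idh3b was at 202 ± 14.8 and 230.1 ± 17.8 FPKM (0.19 ± 0.09, limma adjusted p = 0.652), Idh3g at 134 ± 10.6 and 144 ± 7.995 (0.10, limma adjusted p = 0.812), and Idh3a at 99.4 ± 11.3 and 105 ± 10.2. Citrate synthase (Cs), which opens the cycle, was at 159 ± 24.8 and 181 ± 22.3 FPKM (0.19, limma adjusted p = 0.761), and fumarase (Fh1) at 112 ± 13.7 and 125 ± 9.36 (0.16, limma adjusted p = 0.740). Ogdh and Mdh2 averaged 281 and 345 FPKM with vehicle and 295 and 348 with MEKi, and Dlst, the 1 gene of the cycle below 0, averaged 50.4 and 49.1.

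The steps were then followed heart by heart. Each gene's deviation from its mean over the 10 hearts was taken on the log2 scale, and its median over the 45 genes was 0.01, 0.01, 0.00, -0.10 and -0.23 in vehicle hearts 1 to 5 and 0.10, -0.03, -0.02, 0.15 and 0.10 in MEKi hearts 1 to 5. Vehicle hearts 4 and 5, those with the high red cell markers, were thus the lowest, and MEKi hearts 2 and 3 were below vehicle heart 3. In vehicle heart 5 all 7 steps were below 0, from -0.11 for lactate to -0.34 for glucose entry. That heart also had the highest summed macrophage and fibroblast markers of the vehicle group, at 568 and 231 FPKM against at most 400.3 and 167 in the other 4. Its sums of endothelial markers (158 FPKM) and of smooth muscle and pericyte markers (203 FPKM) were the highest of all 10 hearts. Its ventricular cardiomyocyte sum, 15146 FPKM, was the lowest of the vehicle group, with MEKi heart 5 lower still at 14976. Summed macrophage markers ran from 338 to 568 FPKM with vehicle and from 272 to 337 with MEKi, and all 5 of their genes had lower means with MEKi. The part of these markers in the members' values was not tested.

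**Figure D5:**
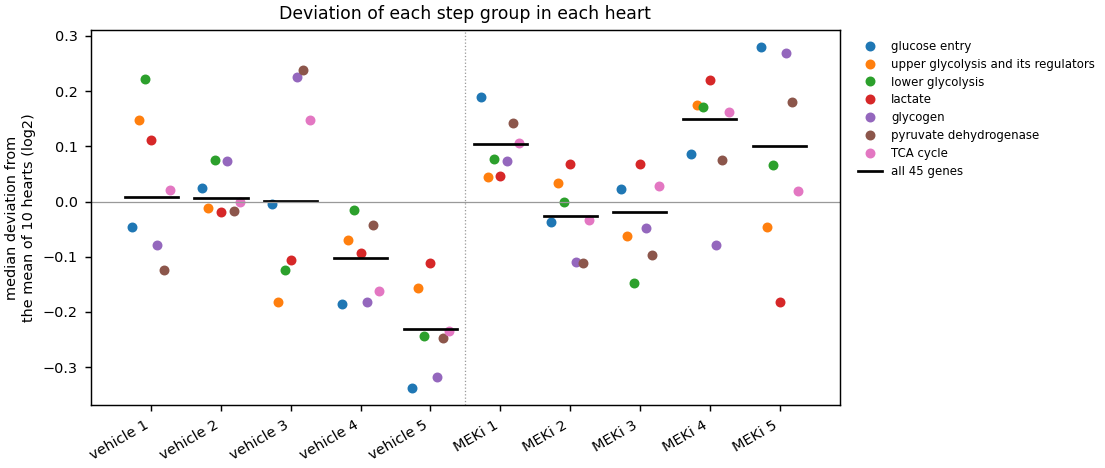
Median deviation of each step's genes from their mean over the 10 hearts (log2, y axis) in each heart, with a black bar for all 45 genes. Vehicle heart 5 is lowest, with the bar at -0.23, and the bars of the other hearts lie between -0.10 and 0.15.

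Isoform use was then compared, since a change of isoform can alter a step without a change in its total. For each pair or set given here, the same form held most of the transcript in both groups. Slc2a4 gave 96.7 ± 0.651% of the transcript of the 2 transporters with vehicle and 96.2 ± 0.245% with MEKi, Pgam2 96.8 ± 1.07% and 96.4 ± 1.90% of the mutases, and Eno3 96.5 ± 0.578% and 96.8 ± 0.479% of the enolases. Pfkm made up 91.6 ± 1.375% and 92.4 ± 0.548% of phosphofructokinase, Pdk2 89.1 ± 1.81% and 89.9 ± 1.404% of the 2 member kinases, and Ldhb 84.7 ± 1.69% and 83.6 ± 0.994% of lactate dehydrogenase. Hexokinase was the most mixed of these pairs, with Hk2 at 63.8 ± 2.76% and 63.2 ± 2.599%.

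Of 10 log2 ratios of such pairs, none passed an exact permutation test (two-sided, every split of the 10 hearts into 5 and 5), whose smallest possible p is 0.00794. The ratio of Suclg2 to Sucla2, the GTP- and ATP-forming subunits, came nearest. It was at -2.29 ± 0.13 with vehicle and -2.12 ± 0.11 with MEKi (SD, n = 5 each), a difference of 0.18 (exact p = 0.0556, Benjamini-Hochberg 0.556 over the 10), and Suclg2 accordingly gave 16.9 ± 1.25% and 18.7 ± 1.17% of the 2 beta subunit transcripts. Without vehicle heart 4 the exact p was 0.0397. With any 1 heart left out it ran from 0.0159 (without MEKi heart 3) to 0.119 (without MEKi heart 5). The ratio of Slc2a1 to Slc2a4 differed by 0.26 (exact p = 0.119), and by 0.33 without vehicle heart 5 (exact p = 0.0159). Without MEKi heart 2 its exact p was 0.262. For Ldha to Ldhb the difference was 0.13 (exact p = 0.230), and for Aldoc to Aldoa it was 0.11 (exact p = 0.738), with Aldoc near the limit of detection.

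Beyond the 46, a list of 67 further genes of these pathways was examined, from other transporters and the pentose phosphate and malate-aspartate routes to glycogen and pyruvate dehydrogenase regulators. Of these, 62 were tested. None passed the adjusted test, 37 were above 0 and 25 below, the median log2 fold change was 0.06, and 4 had an unadjusted limma p under 0.05, 2 higher and 2 lower. That is 6.452% of the list against 7.62% of all genes, of which 3.67% were called higher and 3.94% lower.

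Pdk4 (ENSMUSG00000019577, chromosome 6, 5483351 to 5496309, minus strand), the pyruvate dehydrogenase kinase induced by fasting and fatty acids, was at 24.5, 26.1, 33.6, 55.8 and 32.3 FPKM in vehicle hearts. In MEKi hearts it was at 16.5, 13.4, 23.4, 17.9 and 15.01 FPKM. Every MEKi heart was below every vehicle heart, with MEKi heart 3 close to vehicle heart 1, and vehicle heart 4 was the highest by far. The means were 34.4 ± 12.6 and 17.3 ± 3.85 FPKM, a log2 fold change of -0.95 ± 0.22, with an unadjusted limma p of 0.000887 and an adjusted p of 0.273. Its adjusted p ran from 0.141 to 0.726 over the alternatives and its log2 fold change from -1.07 to -0.63.

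Hif1a, the oxygen-regulated subunit of a transcription factor that drives glycolytic genes (chromosome 12, 73901375 to 73947530, plus strand), was at 5.95, 6.55, 8.42, 6.38 and 6.64 FPKM with vehicle and 10.1, 8.70, 8.61, 7.78 and 9.40 with MEKi. Vehicle heart 3 lay above MEKi heart 4, and otherwise the groups were apart. The log2 fold change was 0.39 ± 0.11 (limma adjusted p = 0.410). Pygb, the brain form of glycogen phosphorylase, was at 93.4, 107, 114, 86.9 and 73.6 FPKM with vehicle and 116, 104, 117, 126 and 109 with MEKi. The means were 94.9 ± 16.0 and 114 ± 8.19 FPKM (0.28 ± 0.12, limma adjusted p = 0.610).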

How the data were processed

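RNA of 10 whole hearts was selected by poly(A) tail and sequenced. The authors deposited FPKM, scaled by gene length and by a size for each library, in 1 table with 1 column per heart. All 10 columns were matched to their hearts by name. The submitters' processing notes name fastp, STAR 2.5, HTSeq 0.6.1 and the build mm10, and the annotation release is not given in the sources used here. In every heart 100% of FPKM times gene length were whole multiples of 1 step (tolerance 0.01 fragment), which gave the fragments behind each value. Coordinates match GRCm38, since 98.3% of 54409 genes with an identifier in GENCODE M21 have the same position there.

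Computed here was log2(FPKM + 0.1), compared with limma 3.58.1 in R 4.3.3 (eBayes with a mean-variance trend), two-sided, on genes averaging 0.5 FPKM or more over the hearts, with Benjamini-Hochberg adjustment. Ratios were compared by exact permutation. The fit was tested on simulated data. Alternatives were pseudocounts of 1 and 0.01, every gene above 0, a mean of at least 5 FPKM, TPM scaling, quantile normalization, autosomal protein-coding genes, eBayes without a trend, voom on the fragments, a replicate block, and leaving out hearts. The p-values set the difference between the groups against the spread between these mice. Values in every heart are given for members with an unadjusted p under 0.05 or groups that did not overlap, for the most abundant member of each step, and for other pathway genes with an unadjusted p under 0.05, of which 1 is not reported here. Near-identical genes and promoters came from GENCODE and RefSeq sequences. The members, lists and tests were chosen with earlier results of these data known.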

Additional observations from a re-analysis of the deposited data

Results flagged for a closer look

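In 6 of 156 groups of 5 hearts, 1 heart lay far from the other 4 by Dixon's test, where about 7.8 would be expected by chance. Pgk1 was at 112.9 FPKM in vehicle heart 5 against 141.5 to 149.4 in the other vehicle hearts. Hif1a was at 8.422 FPKM in vehicle heart 3 against 5.947 to 6.643. The log2 ratio of Pgam1 to Pgam2 was -3.733 in MEKi heart 5 against -5.293 to -4.991. The remaining 3 concern markers of other cells in sum, with fibroblast markers at 230.9 FPKM in vehicle heart 5 against 145.3 to 166.8, macrophage markers at 567.7 FPKM in the same heart against 337.5 to 400.3, and adipocyte markers at 58.92 FPKM in MEKi heart 2 against 3.5 to 8.83.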

How the results depend on the processing

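No member passed an adjusted p of 0.05 under any of the 21 alternatives. Members with an unadjusted p under 0.05 numbered 3, with 6 on the TPM scale and from 2 to 8 when 1 heart was left out (8 without vehicle heart 3). Members above 0 numbered 37, from 30 to 41 when 1 heart was left out, 43 on the TPM scale and 30 after quantile normalization. Leaving out 1 heart moved the median log2 fold change of the members from 0.10 to between 0.06 and 0.15, and TPM scaling to 0.17. Isozyme ratios with an exact p under 0.05 numbered 0, and from 0 to 1 without 1 heart. The replicate numbers did not pair the hearts: correlations of deviations within a number ran from -0.154 to -0.0209, and none of the 5 numbers correlated best with itself. With the replicate block 2 members had an unadjusted p under 0.05, and genes called overall fell to 4 from 10, with 2 at a mean of at least 5 FPKM, 0 among autosomal protein-coding genes, 5 without vehicle hearts 4 and 5 and MEKi heart 2, and 5 to 13 without 1 heart.

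Among the fold changes and ratios given in the text, the sign turned in these cases, whose causes were not tested. With 1 heart left out, the log2 fold change of Eno3 ran from -0.013 to 0.20, of Gapdh from -0.80 (without vehicle heart 2) to 1.54, and of Ldhb from -0.011 to 0.064, and the difference in log2 ratio of Hk1/Hk2 ran from -0.029 to 0.089, of Pfkp/Pfkm from -0.21 to 0.15, of Aldoc/Aldoa from -0.15 to 0.28 and of Pgam1/Pgam2 from -0.15 to 0.29. Without vehicle hearts 4 and 5 and MEKi heart 2, Ldhb was at -0.059, Pfkfb1 at -0.051, Pfkp/Pfkm at 0.16 and Aldoc/Aldoa at -0.28. With a pseudocount of 1 Aldoc/Aldoa was at -0.078, and the mean ranks of Pfkp/Pfkm differed by 0.6. The median of lower glycolysis, at -0.014, reached 0.064 on the TPM scale and ran from -0.058 to 0.039 without 1 heart, and that of glycogen, at 0.047, was below 0 after quantile normalization and ran from -0.026 to 0.089 without 1 heart. The fewest fragments in a single heart were 0 for Aldoc, 55 for Pfkfb1, 68 for Gapdh, 103 for Pfkfb3 and 167 for Slc2a1.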
